A study of Mus musculus with 3 samples.

Results

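Genes of iron storage, iron uptake and export, iron sensing and heme oxygenase were examined in NIH3T3 cells by UMI-mRNA sequencing, in which a random tag on each fragment (a unique molecular identifier) lets PCR duplicates be removed. The 10 genes were chosen by symbol, and each matched 1 of the 55573 genes listed: Fth1, Ftl1, Ncoa4, Tfrc, Slc11a2, Slc40a1, Ireb2, Aco1, Hmox1 and Hmox2. NIH3T3 is an established line of mouse embryonic fibroblasts. The 3 libraries, numbered as in their titles, share 1 condition: untreated cells of this line, grown in DMEM with fetal bovine serum and antibiotics, and according to the methods detached with trypsin before lysis. The labels name no added allele or agent, so the comparisons run between genes within a library and between libraries of the same condition. The sources do not say whether the libraries came from separate cultures. The p-values therefore speak only for these libraries, whose differences may be technical.

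Iron is taken into most cells as iron-loaded transferrin through the transferrin receptor, is moved out of the endosome by a divalent metal transporter, and leaves the cell through ferroportin. Iron that is not used is stored inside the ferritin shell, which is built of heavy and light chains, and is freed when the cargo receptor NCOA4 carries ferritin to the lysosome. Iron regulatory proteins bind a stem-loop in mRNAs, the iron-responsive element, when iron is scarce. Bound in the 5′ untranslated region (UTR) they hold back translation, and bound in the 3′ UTR they protect the mRNA from decay. Heme oxygenases open the heme ring and release its iron.

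Levels are given as FPKM as the authors deposited them, the fragments of a gene divided by its length in kilobases and scaled to 1000000 counted fragments in the library. Totals of 13959723 to 14423209 fragments per library were recovered from these values. Of fibroblast markers 8 of 8 had a mean of at least 1 FPKM, and their sum ranged from 9175 to 9294 FPKM. Their levels were unlike, from Fn1 at a mean of 4377 FPKM to S100a4 at 2.97 FPKM. The label for RNA extraction names retinas although the samples are labelled as a fibroblast line, and 0 of 6 retina markers reached 1 FPKM, with sums of 0.562 to 1.31. Of erythroid markers 2 of 9 reached 1 FPKM, Epor at a mean of 2.65 and Alas2 at 1.00 (sums of 3.41 to 4.21). Hbb-bs, Hbb-bt and Hba-a2 were among those listed at 0. Of macrophage markers 2 of 7 did so, Lyz2 at 2.54 and Cd68 at 2.12 FPKM (sums of 4.38 to 5.38). Adgre1, Cd163 and Itgam were at 0. Of liver markers 0 of 5 did so (sums of 0.0858 to 0.196, with Hamp, Ttr and Apoa1 at 0). In bulk RNA, fewer cells that express a gene and less RNA per cell cannot be told apart.

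The stem-loop that links these genes is shown for the 4 of the 10 in whose UTRs it was found. The search read the sense strand of the annotated UTRs of protein-coding isoforms (GENCODE M21, build GRCm38) for a C, any 5 bases, the loop CAGTGN and 5 bases that pair with the 5 before the loop, by Watson-Crick or G-T pairs. Each window of 29 bases is printed 5′ to 3′, with the bulged C and the 6 loop bases in capitals.
Fth1, 5′ UTR, chr19:9982732-9982760, plus strand: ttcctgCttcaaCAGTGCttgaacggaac
Ftl1, 5′ UTR, chr7:45459779-45459807, minus strand: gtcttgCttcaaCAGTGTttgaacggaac
Slc40a1, 5′ UTR, chr1:45925465-45925493, minus strand: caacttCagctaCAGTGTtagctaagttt
Tfrc, 3′ UTR, chr16:32631219-32631247, plus strand: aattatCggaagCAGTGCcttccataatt
Tfrc, 3′ UTR, chr16:32631598-32631626, plus strand: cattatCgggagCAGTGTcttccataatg
Tfrc, 3′ UTR, chr16:32631663-32631691, plus strand: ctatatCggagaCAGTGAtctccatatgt
Tfrc, 3′ UTR, chr16:32631710-32631738, plus strand: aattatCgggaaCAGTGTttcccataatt

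Both ferritin chains and the exporter held a match to this pattern in the 5′ UTR, and the transferrin receptor held 4 matches in the 3′ UTR. Among all genes with an annotated 5′ UTR, 31 of 20597 (0.151%) held such a match, and 129 of 20995 (0.614%) did so in the 3′ UTR. The match depended on the isoform: it lay in 4 of the 5 Fth1 isoforms with a 5′ UTR, 1 of the 2 of Ftl1, 1 of the 4 of Slc40a1, and 1 of the 2 Tfrc isoforms with a 3′ UTR. Per-gene values do not say which of these isoforms were present. These letters and this pairing were not found in the UTRs of Slc11a2, Ncoa4, Ireb2, Aco1, Hmox1 and Hmox2. The search misses any element with other loop letters or with an unpaired base among the 5 pairs. A gene without a match can therefore still hold an element. A match is a description of sequence, and binding was not measured.

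All 10 genes had a mean of at least 1 FPKM, beside 23.2% of all genes listed and 49.2% of protein-coding genes. Ranked among the 12905 genes that reached this level, 3 of the 10 (Fth1, Ftl1 and Hmox1) lay in the highest 10%, and 9 of the 10 lay above the median. Their own median was 55.2 FPKM, beside 17.5 FPKM over the ranked genes. Together they summed to 3427 ± 5.95 FPKM (SD, n = 3), which was 0.497% ± 0.00529 of the summed FPKM of a library.

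**Figure D1:**
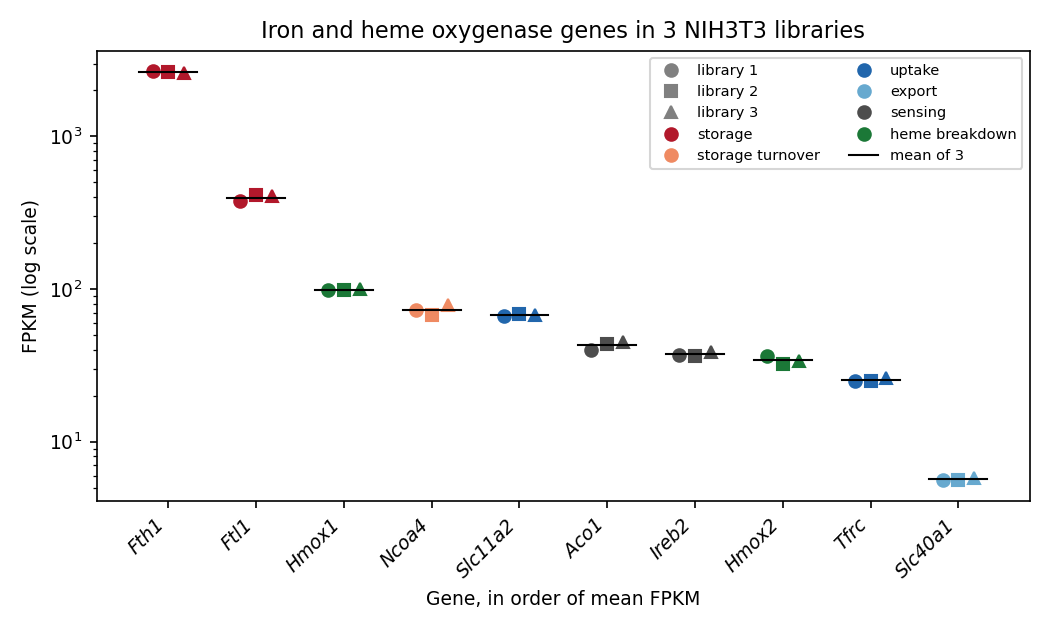
FPKM on a log axis of each of the 10 genes in 3 NIH3T3 libraries, in order of the mean; symbols mark libraries, colours mark roles and bars mark the mean of 3. Fth1 lies near 2644 FPKM and Slc40a1 near 5.66 FPKM, and the libraries of a gene lie close together beside the steps between most genes.

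Ferritin heavy chain was the most abundant of the 10. Fth1 (ENSMUSG00000024661, chr19:9980598-9985098), whose product oxidises iron as it enters the ferritin shell, was at 2674, 2639 and 2620 FPKM in libraries 1 to 3, a mean of 2644 ± 27.5 (SD, n = 3) on 34747, 33188 and 33769 fragments. It ranked 11 of 12905 genes and 10 among protein-coding genes. Its neighbours there were Rplp0, a protein of the large ribosomal subunit, at 2744 ± 48.4 FPKM and Pabpc1, the cytoplasmic poly(A)-binding protein, at 2557 ± 12.2 FPKM, and the libraries of these 3 genes did not overlap. Fth1 alone made up 77.2% ± 0.699 of the summed FPKM of the 10 genes.

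Ferritin light chain, Ftl1 (ENSMUSG00000050708, chr7:45457944-45459884), which favours formation of the iron core, was at 375 FPKM in library 1, 413 in library 2 and 405 in library 3, on 4109, 4372 and 4400 fragments. The mean was 398 ± 19.7 FPKM (SD, n = 3) at rank 211, level with Kitl, the ligand of the KIT receptor, at 398 ± 3.37 FPKM and Csf1, a macrophage growth factor, at 397 ± 5.25 FPKM, whose libraries overlapped with those of Ftl1. The heavy chain exceeded the light chain 7.12-, 6.39- and 6.47-fold in FPKM, a mean of 6.66 ± 0.402, and was 86.9% ± 0.667 of both chains. The size of this ratio depended on gene length: on the log2 scale it was 2.73 as deposited and 1.89 with the longest annotated isoform. The lowest Fth1 value lay far above the highest Ftl1 value. Mitochondrial ferritin, Ftmt, was listed at 0 in all 3 libraries, and 3 fragments would have been at most 0.148 FPKM.

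Ncoa4 (ENSMUSG00000056234, chr14:32159865-32179855), the receptor that delivers ferritin for breakdown, was at 73.2, 68.1 and 78.9 FPKM in libraries 1 to 3, a mean of 73.4 ± 5.42 (SD, n = 3). Library 3 was the highest and library 2 the lowest. The cargo exceeded its receptor at the level of mRNA by far: Fth1 was 36.5-, 38.8- and 33.2-fold above Ncoa4 in FPKM, a mean of 36.2 ± 2.80. The log2 ratio of Ncoa4 to Fth1 was −5.17 as deposited, −4.33 for fragments not divided by length and −5.77 with the isoform that the annotation marks as principal.

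Of the 3 genes of iron uptake and export among the 10, the divalent metal transporter was the highest and the exporter the lowest. Slc11a2 (ENSMUSG00000023030, chr15:100387898-100425072), which encodes the transporter DMT1 that moves ferrous iron across the endosomal membrane, was at 66.3, 69.0 and 67.3 FPKM, a mean of 67.5 ± 1.35 (SD, n = 3). Tfrc (ENSMUSG00000022797, chr16:32608920-32632794), the transferrin receptor, was at 25.1, 25.1 and 26.2 FPKM, a mean of 25.5 ± 0.660. Slc11a2 exceeded Tfrc 2.64-, 2.75- and 2.57-fold in FPKM.

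Slc40a1 (ENSMUSG00000025993, chr1:45908068-45926523) encodes ferroportin, the known cellular iron exporter. It was at 5.60, 5.59 and 5.78 FPKM, a mean of 5.66 ± 0.107 (SD, n = 3), on 122, 118 and 125 fragments. The exact Poisson 95% intervals, which cover counting error only, reached from 4.65 to 6.68 FPKM for library 1, 4.63 to 6.70 for library 2 and 4.81 to 6.89 for library 3. It ranked 9580 and was the only gene of the 10 below the median of the ranked genes. Tfrc exceeded it 4.48-, 4.48- and 4.54-fold in FPKM, a mean of 4.5 ± 0.0309, the narrowest spread of the 6 ratios tested on the log2 scale (2.17 ± 0.01). For both genes the coefficient of variation over libraries lay below that from counting alone. It was 1.90% beside 9.07% for Slc40a1 and 2.59% beside 3.93% for Tfrc. The narrow spread is therefore no measure of how exactly this ratio is known. Nor does it cover the gene length, since the log2 ratio was 1.41 with the mean length of the protein-coding isoforms.

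The iron regulatory proteins were at close levels as deposited, in an order that turned with the gene length used. Aco1 (ENSMUSG00000028405, chr4:40143081-40198338) encodes IRP1, which is a cytosolic aconitase when it holds an iron-sulfur cluster and binds RNA when it does not. It was at 39.8, 43.9 and 44.7 FPKM, a mean of 42.8 ± 2.61 (SD, n = 3). Ireb2 (ENSMUSG00000032293, chr9:54863789-54912530) encodes IRP2, which is degraded when iron is plentiful, and was at 37.2, 36.6 and 38.6 FPKM, a mean of 37.4 ± 1.05. Aco1 exceeded Ireb2 1.07-, 1.2- and 1.16-fold in FPKM, without overlap between the libraries of both genes. The log2 ratio of Ireb2 to Aco1 was −0.19 ± 0.08 as deposited, 0.53 with the longest annotated isoform, 1.12 for fragments not divided by length and 1.37 with the mean length of the protein-coding isoforms.

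The inducible heme oxygenase exceeded the constitutive form in all 3 libraries. Hmox1 (ENSMUSG00000005413, chr8:75093621-75100589), which is induced by heme and oxidative stress, was at 98.26, 98.28 and 99.95 FPKM, a mean of 98.8 ± 0.970 (SD, n = 3) at rank 1226. Its neighbours among protein-coding genes were Hnrnpa0, an RNA-binding protein, at 98.9 ± 6.39 FPKM and Fh1, the fumarase of the citric acid cycle, at 98.7 ± 1.38 FPKM, both overlapping with Hmox1. Hmox2 (ENSMUSG00000004070, chr16:4726361-4766742) was at 36.2, 32.3 and 33.8 FPKM, a mean of 34.1 ± 1.98. Hmox1 was 2.71-, 3.04- and 2.96-fold above Hmox2 in FPKM, a mean of 2.91 ± 0.171, and made up 74.4% ± 1.15 of the summed FPKM of both. The ratio rests on the fragments assigned to Hmox2, which shares sequence with Cdip1 and Ppp4r2.

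Each of 6 ratios (Fth1 to Ftl1, Tfrc to Slc11a2, Tfrc to Slc40a1, Ireb2 to Aco1, Hmox1 to Hmox2 and Ncoa4 to Fth1) kept its direction in 3 of 3 libraries. By an exact permutation test that flips the sign of each library's log2 ratio (two-sided), p was 0.25 for each of them, also after Benjamini-Hochberg adjustment over the 6. With 3 libraries no smaller p can be had, and the design cannot reach the threshold of 0.05.

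**Figure D2:**
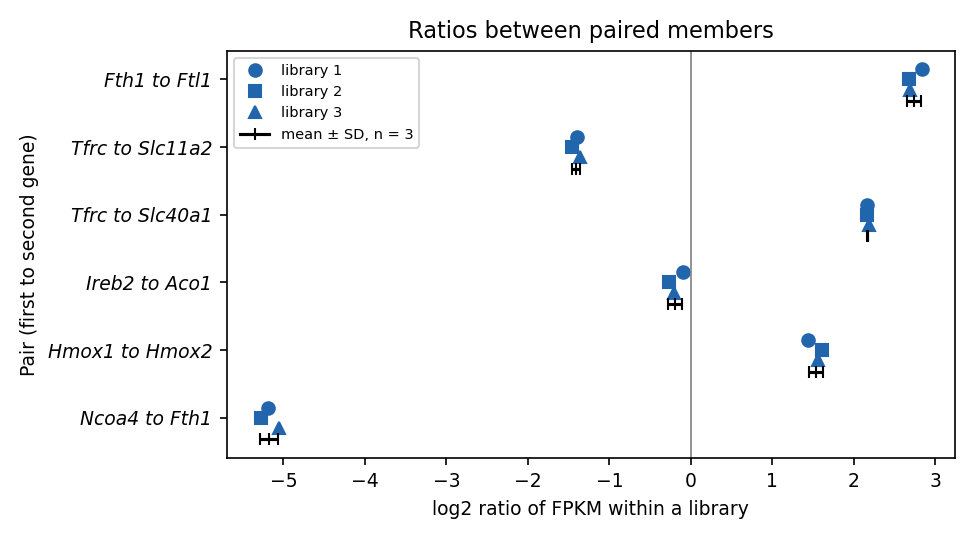
Log2 ratio of FPKM within a library for 6 pairs of the genes; symbols mark the 3 libraries and bars show mean ± SD (n = 3). Heavy to light ferritin chain lies at 2.73 ± 0.09, Hmox1 to Hmox2 at 1.54 ± 0.09 and Tfrc to Slc11a2 at −1.41 ± 0.05, while Ireb2 to Aco1 lies nearest to 0 at −0.19 ± 0.08.

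In descending order of the mean the genes were Fth1, Ftl1, Hmox1, Ncoa4, Slc11a2, Aco1, Ireb2, Hmox2, Tfrc and Slc40a1. Of the 9 pairs of neighbours in this order, 8 did not overlap between libraries and had the same order in each. Ncoa4 and Slc11a2 overlapped: Ncoa4 was 1.10-, 0.987- and 1.17-fold of Slc11a2 in FPKM (exact two-sided sign-flip permutation test, p = 0.5, also adjusted over the 9 pairs). Each of the other 8 pairs had an exact permutation p of 0.25, adjusted to 0.281. The pairs and their direction were taken from the means of the same libraries that were tested, so these p-values are descriptive.

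Spread between libraries was then set against counting error, using the recovered fragments. In a chi-square test of the fragments against the library totals, with 2 degrees of freedom and Benjamini-Hochberg adjustment over 12803 genes, 2.12% of genes were called at an adjusted p under 0.05, and 2 of the 10 were called: Ftl1 and Ncoa4. This test was chosen after the data were seen. For Ftl1, where library 1 was the lowest, chi-square was 21.2 and the adjusted p was 0.00190 over all 3 libraries. Without library 1 the adjusted p rose to 0.953, and it was 0.0309 without library 2 and 0.00162 without library 3.

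For Ncoa4 chi-square was 18.3 with an adjusted p of 0.00714. The chi-square call was lost without library 2 (adjusted p = 0.424) and without library 3 (adjusted p = 0.505), and was held without library 1 (adjusted p = 0.00308). The coefficient of variation (CV) over libraries was 7.39% for Ncoa4, beside 2.43% from counting alone, and 4.96% for Ftl1, beside 1.53%. The adjusted chi-square p was 0.408 for Fth1 and 0.475 for Aco1, and from 0.741 to 0.993 for the other 6. The CV exceeded the counting CV in 6 of the 10, beside 42.5% of the genes tested. Hmox1 had the smallest CV, 0.981%, below its counting CV of 2.46%, and Fth1 followed with 1.04%, above its counting CV of 0.543%.

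**Figure D3:**
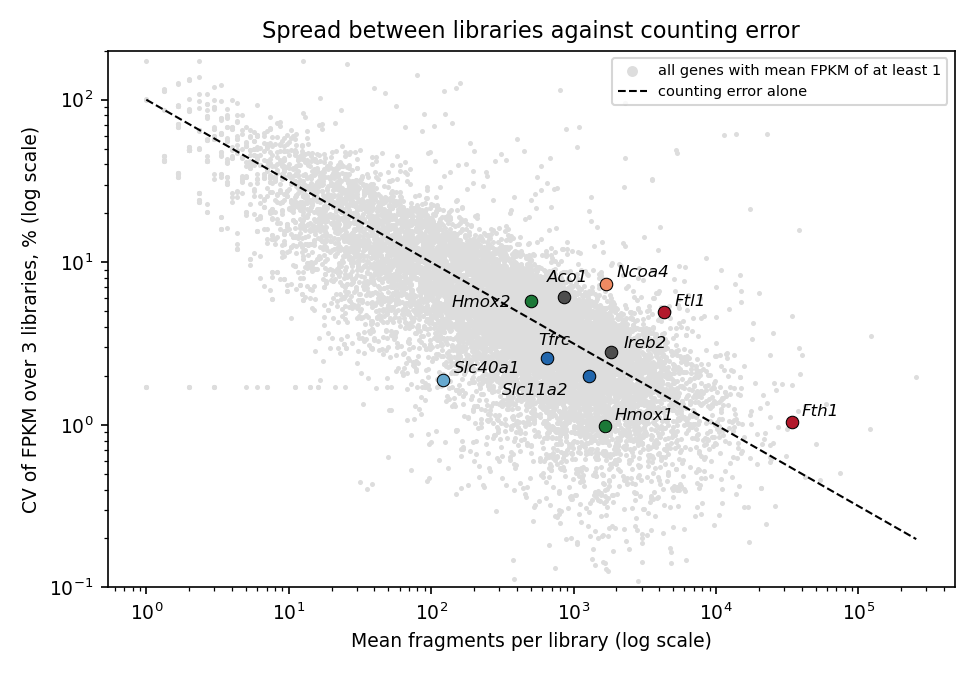
CV of FPKM over 3 libraries against mean fragments per library, both on log axes, with the 10 genes in colour, other genes with a mean of at least 1 FPKM in grey (those outside the axis range not drawn) and the CV from counting alone as a dashed line. Ncoa4 (7.39%) and Ftl1 (4.96%) lie well above the line, and Slc40a1 (1.90%) and Hmox1 (0.981%) lie below it.

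The length that divides the fragments bears on levels compared between genes. For the 10 genes the deposited FPKM gave whole fragments with the rounded mean length of all annotated isoforms, noncoding ones included. For Fth1 this length was 901 nt over 9 isoforms of 333 to 2062 nt. The longest isoform exceeded the mean length 3.29-fold for Slc11a2, 2.93-fold for Ncoa4, 2.74-fold for Aco1 and 2.73-fold for Tfrc, beside a median of 1.72 over the ranked genes.

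Divided by the longest isoform, Aco1 was at 15.6 FPKM in place of 42.8, Slc11a2 at 20.5 in place of 67.5, Ncoa4 at 25.1 in place of 73.4 and Tfrc at 9.33 in place of 25.5. Fth1 was then at 1155 FPKM and Ftl1 at 312 FPKM. The 4 lengths tried were the mean over all isoforms, the mean over protein-coding isoforms, the APPRIS principal isoform, which the annotation marks as the main protein-coding form, and the longest isoform. Under each of them Fth1 stayed first, Ftl1 next and Slc40a1 last, and Aco1 fell from place 6 as deposited to place 8 or 9. Ireb2 then stood above Aco1 under each of the 3 other lengths.

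**Figure D4:**
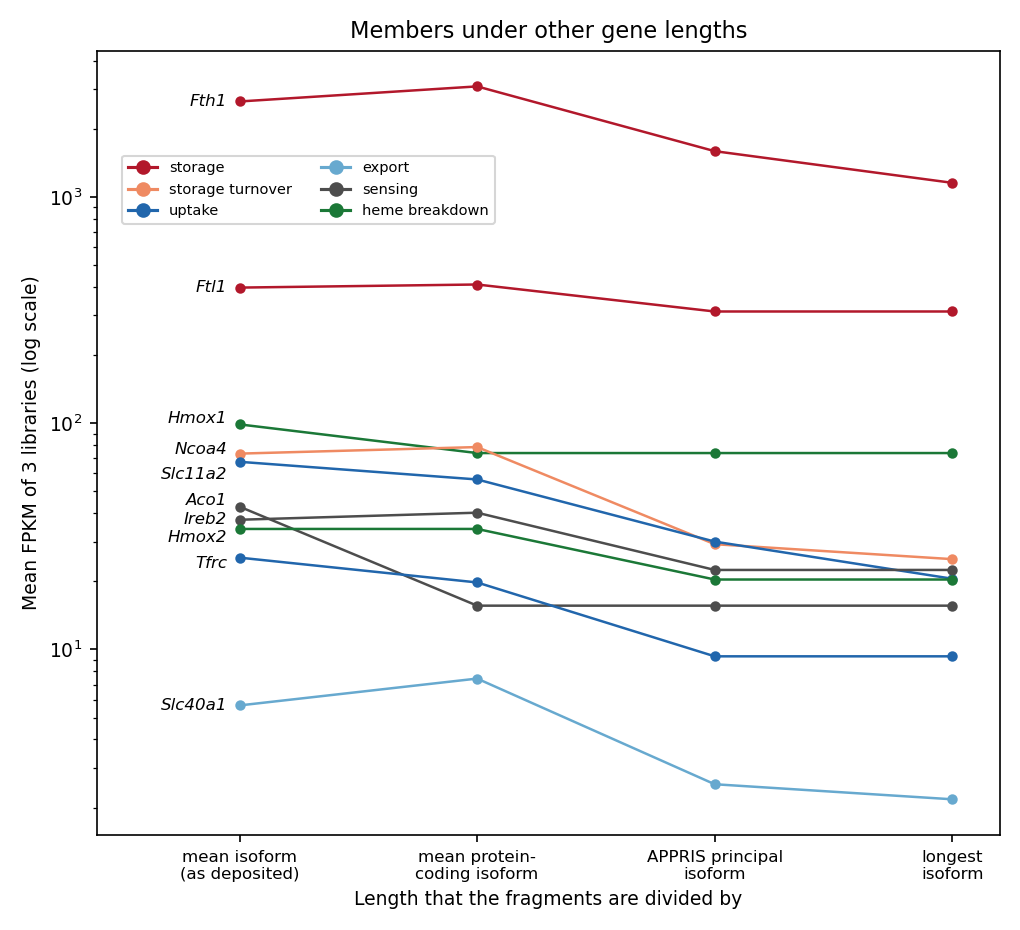
Mean FPKM of 3 libraries on a log axis for the 10 genes when the same fragments are divided by 4 different gene lengths; lines join a gene and colours mark roles. Fth1 ranges from 1155 to 3083 FPKM and stays on top, whereas the line of Aco1 crosses that of Ireb2, falling from 42.8 to 15.6 FPKM.

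Reads of near-identical copies are uncertain, since mappers and counters can discard or split them. Of the distinct 75-nt words of Ftl1 transcripts, 51.3% also occur in annotated transcripts of other genes, mainly Ftl1-ps1, which the annotation types as protein coding, the processed pseudogenes Gm15590 and Ftl2-ps and the overlapping Gm10252, the highest share among the 10. Its 8 partners together held 110, 118 and 100 fragments, which was 2.68%, 2.70% and 2.27% of those of Ftl1. With them added the CV of Ftl1 was 4.91%. Ncoa4 shared 16.9% of its words, all with the processed pseudogene Gm6768, which held 188, 175 and 166 fragments, and with it added the CV of Ncoa4 was 6.33%.

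The heavy chain was nearly unique in annotated transcripts: 0.882% of the words of Fth1 were shared, with Gm6977. Slc11a2 shared 2.85% with Gm5475, and Tfrc, Slc40a1, Ireb2, Aco1 and Hmox1 shared none. Hmox2 shared 36.8%, most of it with Cdip1, which lies on the opposite strand, overlaps 892 nt of its exons and was at 38.9, 42.2 and 39.9 FPKM. A further 4.88% of its words occur in Ppp4r2, a regulatory subunit of protein phosphatase 4, which held 2653, 2449 and 2571 fragments. Together Cdip1 and Ppp4r2 held 4114, 3985 and 4059 fragments, beside 540, 466 and 500 of Hmox2. Whether counting used the strand is not given in the sources used here, so reads of Hmox2 and Cdip1 in the overlap cannot be told apart, and the same holds for Ftl1 and Gm10252 over 355 nt.

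Other rows named as ferritin were few and low. Of 17, 12 were listed at 0 in each library. The highest was Ftl1-ps1 at 3.88, 5.51 and 3.71 FPKM, followed by Fth-ps2 at 1.07, 0.972 and 1.08 FPKM and Ftl2-ps at 0.251, 0.389 and 0.886 FPKM. Copies named after the light chain summed to 1.28% ± 0.191 of Ftl1 (SD, n = 3), and those named after the heavy chain to 0.0395% ± 0.00236 of Fth1.

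The remaining genes of iron and heme handling were taken from 7 lists by role. Of their 58 genes found, 47 (81.0%) had a mean of at least 1 FPKM, beside 49.2% of protein-coding genes. In import and reduction 6 of 10 did so. Steap1 was the highest at 296 ± 6.82 FPKM, and its relative Steap2, a metalloreductase, was at 221 ± 3.35 FPKM, both above Slc11a2, and Steap3, the endosomal ferrireductase of the transferrin cycle, was at 48.9 ± 1.51 FPKM. Slc39a14, a transporter of iron that is not bound to transferrin, was at 114 ± 3.35 FPKM.

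Transferrin itself, Trf, was listed at 0 in all 3 libraries, where 3 fragments would have been at most 0.200 FPKM. Cybrd1, a ferric reductase known from the duodenum, was the lowest above 0, at a mean of 0.0217 FPKM on 2, 0 and 3 fragments. Tfr2, the transferrin receptor of hepatocytes, was at 0.0564 FPKM on 1, 2 and 1 fragments. At so few fragments the order of these genes is not settled. In export 4 of 7 genes reached 1 FPKM, among them the ferroxidases Cp at 35.1 ± 0.568 and Heph at 3.64 ± 0.327 FPKM, and the heme exporter Flvcr1 at 8.68 ± 0.524 FPKM. Hamp, which encodes the hormone hepcidin that removes ferroportin from the surface, was listed at 0 with 3 fragments being at most 0.524 FPKM.

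In sensing 5 of 8 genes reached 1 FPKM. The poly(rC)-binding iron chaperones Pcbp2 and Pcbp1 were at 177 ± 1.66 and 138 ± 5.50 FPKM. Fbxl5, the iron-sensing adaptor that marks IRP2 for degradation, was at 55.9 ± 1.44 FPKM, above Ireb2 in 3 of 3 libraries. Hjv, a coreceptor upstream of hepcidin, was the lowest at 0.0807 FPKM, on 3, 2 and 2 fragments. Of the storage partners 6 of 7 reached 1 FPKM, from Pcbp4 at 188 ± 1.2 to Atg9a at 17.2 ± 0.601 FPKM. Tax1bp1, an autophagy receptor that acts with NCOA4, was at 110.0 ± 0.625 FPKM, and Herc2, a ubiquitin ligase of NCOA4, at 29.8 ± 0.364 FPKM.

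All 9 genes of mitochondrial iron and iron-sulfur clusters were at 1 FPKM or more, from Lyrm4 at 5.63 ± 0.0397 to the iron importer Slc25a37 (mitoferrin 1) at 216 ± 3.62 FPKM. All 9 genes of heme synthesis were, too. The housekeeping first enzyme Alas1 was at 14.96 ± 0.969 FPKM, and the erythroid form Alas2 was the lowest, at 0.612, 1.44 and 0.954 FPKM, so that its mean of 1.00 stood at the limit. Cpox was the highest of this list at 59.0 ± 3.45 FPKM.

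Around the heme oxygenases 8 of 8 genes reached 1 FPKM. Por, the reductase that gives them electrons, was the highest at 132 ± 4.29 FPKM, and the heme transporter Slc48a1 was at 128 ± 1.42. The activator of Hmox1, Nfe2l2, was at 106 ± 2.14 FPKM and its heme-binding repressor Bach1 at 21.1 ± 0.583, with Keap1, which holds NRF2 low, at 14.6 ± 0.434. Biliverdin reductases, which take on the product of heme oxygenase, were at 74.2 ± 4.44 (Blvrb) and 17.1 ± 0.866 FPKM (Blvra). Hpx, the plasma heme carrier, was the lowest at 2.26 ± 0.184 FPKM.

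**Figure D5:**
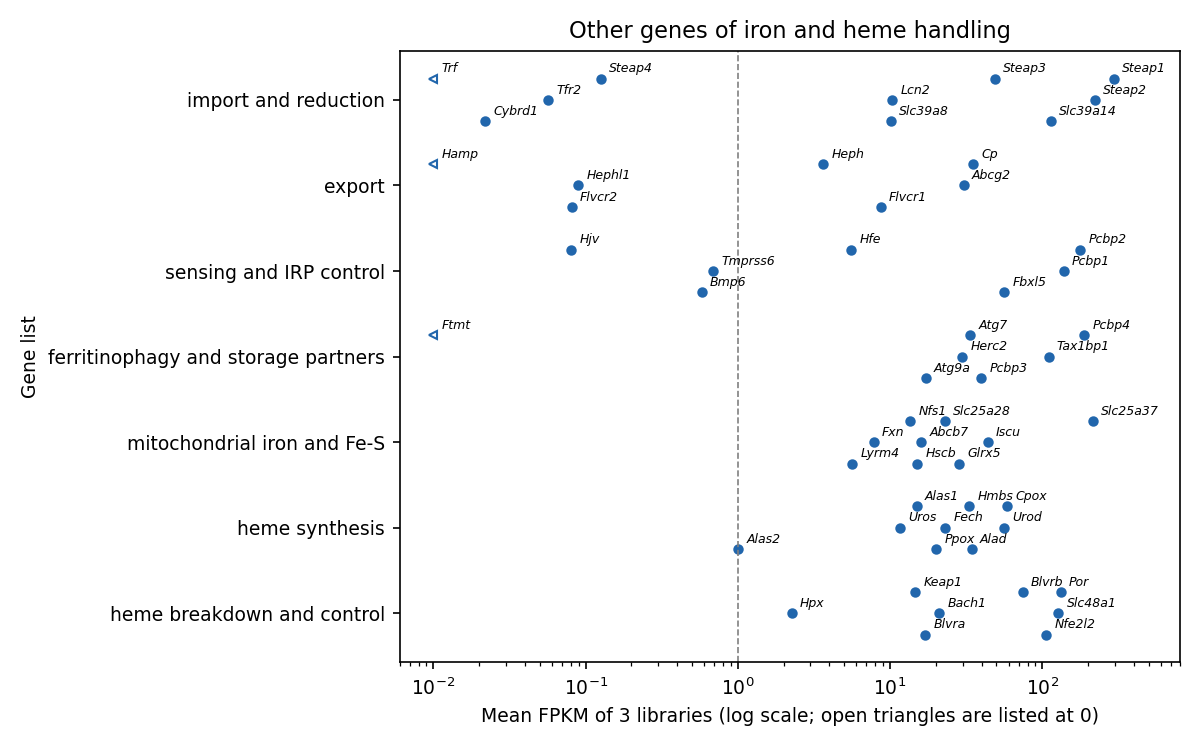
Mean FPKM of 3 libraries on a log axis for genes of 7 lists of iron and heme handling, with the dashed line at 1 FPKM and open triangles for genes listed at 0. Steap1 at 296 FPKM is the highest, all 9 mitochondrial genes lie to the right of the line, Alas2 lies on it, and Trf, Hamp and Ftmt are listed at 0.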

How the data were processed

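UMI-mRNA sequencing was done on 3 NIH3T3 libraries. According to the methods, UMIs were identified and reads without one were discarded, the rest were mapped, duplicates with the same position and UMI were removed, and reads were counted per gene. The submitters' processing notes list UMI-tools 1.0.0, HISAT2 2.0.4 and HTSeq 0.6.1. The authors divided the counts by gene length and library total and deposited FPKM, 1 column per library. The genome build and annotation they used are not given in the sources used here. Both deposited tables held identical values for 55573 genes, and 0 columns of values were left unused.

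Library totals were recovered from genes with 1 isoform and the lengths of GENCODE M21 (GRCm38), in which 55480 gene IDs were found. Of the genes above 0, 99.1% then gave whole fragments within 0.01 in every library, all 10 genes described among them, and the others were left out of the chi-square test. On simulated fragments the recovery returned 3 of 3 totals and 100% of 24487 genes, and the chi-square test called 100 of 100 genes changed 4-fold in library 1, 63 of 100 genes raised by 25% there and 8 of 12704 unchanged genes. As FPKM is not a count, count models were not used. Ratios were taken within a library without a pseudocount and tested with an exact sign-flip permutation test. Sequence sharing was measured over all distinct words of 75 nt in a gene's transcripts, as the percentage that other annotated genes' transcripts hold on any strand.

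The genes and lists were chosen with earlier results of these data known. Named are the 10 genes, rows called ferritin copies, genes that overlap or share words with a member, the protein-coding genes next to Fth1, Ftl1 and Hmox1, and from each list the highest, the lowest above 0 and partners of the 10. Some genes of the lists are counted but not reported here by name. Alternatives were pseudocounts, filters, other gene lengths, fragments not divided by length, added copies, other scalings and leaving out each library. Python 3.11.15, numpy 2.4.6, pandas 2.3.3, scipy 1.17.1 and matplotlib 3.10.9 were used.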

Additional observations from a re-analysis of the deposited data

How the results depend on the processing

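No paired analysis was possible because a single condition was sequenced. Of 60 alternative values of the 6 ratios, 56 kept their sign. The others concern Ireb2 to Aco1, whose log2 ratio turned from −0.19 to 0.53 with the longest and with the APPRIS principal isoform, to 1.37 with the mean protein-coding isoform and to 1.12 for fragments not divided by length. The gene length is the only thing changed there, and the sign turned under every setting that changed it. Many of the 60 values could not turn. Each ratio had the same direction in every library, so leaving out a library or adding a pseudocount to both genes could not reverse it. Added copies changed only the ratios that hold a ferritin chain. Length also moved ratios that kept their sign by over 1.5 times: Fth1 to Ftl1 from 2.73 to 1.89 (longest isoform), Tfrc to Slc40a1 from 2.17 to 1.41 (mean protein-coding isoform), and Ncoa4 to Fth1 from −5.17 to −4.33 (fragments) and −5.77 (APPRIS), all on the log2 scale. The share of a library held by the 10 genes was 0.497% of summed FPKM, 0.329% of fragments and 0.511% of summed FPKM without mitochondrial genes. Of the 10, 2 had libraries that differed beyond counting error, also with median-of-ratios scaling, and leaving out each library in turn left from 1 to 1. Neighbouring pairs in the same order numbered 8, and 6 to 9 under the alternatives. The APPRIS, mean protein-coding and chi-square alternatives were chosen after seeing the data. Depth limits Slc40a1 most, with a counting CV of 9.07%.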
